A study of Mus musculus with 6 samples.

Results

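The cells described here were the 3 Flp cultures of a series of 6 libraries, chosen as the samples labelled Flp. They are mouse induced renal epithelial cells (iRECs) of the strain B6.129S4-Pkd1tm2Ggg/J, transduced with the recombinase Flp and carrying the genotype Pkd1 fl/fl, given as wild type. The other 3 libraries come from Cre cultures of the same clones, given as knockout (Pkd1 -/-), and enter no value here. The Flp cultures are those of clones 4, 7 and 21, with 1 library each, and where 3 values are given they follow this order. Each culture was grown to confluency in the medium used for embryonic fibroblasts, and total RNA was extracted. The labels do not give the animals behind the clones, so the spread given is the spread between 3 clone cultures. All results are levels described without a test, since there is 1 group and 1 library per clone.

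As background, iRECs are fibroblasts turned into tubule-like epithelial cells by introducing kidney transcription factors, among them Emx2, Hnf4a and Pax8. In the kidney, Pax8 acts in the forming nephron, and Hnf4a is a main regulator of the proximal tubule, the segment that takes back most filtered solutes and proteins. Fibroblasts by contrast make fibrillar collagens and lack the junctions that hold an epithelial sheet together. The counts are per gene and do not tell transcripts of introduced copies from those of the cells' own genes.

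The libraries held 25196120 counts in clone 4, 40274665 in clone 7 and 26758752 in clone 21. Levels are in CPM, which is counts scaled by the library total, and levels of different genes are compared in RPKM, which is CPM divided by the exon length in kilobases. For a gene with no read, counting error alone left room for 0.119, 0.0744 and 0.112 CPM, which is 3 counts in each library. A gene was called detected when it had at least 1 CPM in all 3 cultures, which held for 11336 of 21800 protein-coding genes, or 52.0%. Another 786 reached 1 CPM in only 1 or 2 cultures, and 5788 had no read in any. Pkd1, the gene of polycystin 1 that the study set out to delete, was at 196, 228 and 165 CPM in the Flp cultures. All 37 mitochondrially encoded genes stood at 0 counts. In bulk RNA, fewer cells that express a gene and less of its RNA per cell cannot be told apart.

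The 5 marker genes of the renal epithelial label were all detected in every culture. Emx2, Hnf4a and Pax8 are among the factors introduced to make iRECs, so detecting them does not check the label. Emx2 (chromosome 19, 59458372 to 59465357, GRCm38), a homeobox factor of the early urogenital tract, stood at 959, 962 and 897 CPM in clones 4, 7 and 21. Hnf4a (chromosome 2, 163506808 to 163572910), a nuclear receptor, stood at 1339, 1308 and 1177 CPM, and Pax8 (chromosome 2, 24420560 to 24475599), a paired-box factor, at 282, 246 and 239 CPM. The highest and lowest culture of each factor were close, and clone 21 was the lowest for all 3. Cdh16 (chromosome 8, 104601911 to 104624396), the kidney-specific cadherin of tubule cells, stood at 893, 749 and 783 CPM. Pkhd1 (chromosome 1, 20057779 to 20618064), which encodes fibrocystin of the primary cilium, stood at 596, 633 and 497 CPM. Per length, the order was Emx2 at 313 ± 12.2 RPKM, Hnf4a at 264 ± 17.8 RPKM, Cdh16 at 213 ± 19.8 RPKM, Pax8 at 42.1 ± 3.79 RPKM and Pkhd1 at 40.2 ± 4.90 RPKM (mean ± SD, n = 3). Between Emx2 and Hnf4a and between Hnf4a and Cdh16 the values of the 3 cultures did not overlap, whereas Pax8 and Pkhd1 overlapped. The median detected protein-coding gene stood at 9.12 RPKM. Exons of Emx2, Pax8 and Pkhd1 overlap those of another annotated gene, so these counts are uncertain.

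The HNF4 nuclear receptors bind DNA at sites with the core letters CAAAGTCCA. Among 46 genes of the marker, reprogramming, proximal tubule and pan-tubule lists with a promoter in the RefSeq table, 1 held these letters within 250 bases before its start. It is Slc3a1, a subunit of the cystine transporter of the proximal tubule, and its promoter is shown because of that match. The sequence is from RefSeq on GRCm38.p6, and capitals mark the match.

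Slc3a1, chr17:85028097-85028346, plus strand: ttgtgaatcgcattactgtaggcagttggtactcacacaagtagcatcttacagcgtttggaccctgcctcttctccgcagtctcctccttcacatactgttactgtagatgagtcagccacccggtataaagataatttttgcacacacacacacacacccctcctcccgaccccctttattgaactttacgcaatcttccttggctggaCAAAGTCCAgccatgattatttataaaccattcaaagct

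The letters were searched on either strand with no mismatch, and the match begins 39 bases before the start of Slc3a1. Of 16455 protein-coding genes with a promoter, 79 held them, or 0.480%. The share was 0.387% of genes detected in the Flp cultures and 0.594% of the others. Slc3a1 was at 0.717, 1.02 and 1.16 CPM, near the detection threshold in every culture, beside Hnf4a at 1339, 1308 and 1177 CPM. A match is a description of letters and not a measured binding site.

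The most abundant transcripts per length came from a secreted lipid carrier, the translation and folding machinery, the cytoskeleton and the matrix. Apoe, the apolipoprotein E gene, was the highest protein-coding gene at 1547 ± 642 RPKM (mean ± SD, n = 3). Its level was 3288, 1945 and 4691 CPM in clones 4, 7 and 21, so that clone 21 was the highest and clone 7 the lowest. The elongation factors Eef2 and Eef1a1 stood at 739 ± 114 and 658 ± 51.7 RPKM, and the lysosomal protein prosaposin (Psap) at 674 ± 86.1 RPKM. The keratin Krt18 stood at 649 ± 236 RPKM, beta-actin (Actb) at 644 ± 80.8 RPKM and the chaperone Hsp90ab1 at 646 ± 87.0 RPKM. Ranks 2 to 11, from Eef2 to Tmem176b at 568 ± 37.7 RPKM, overlapped with their neighbours in rank between cultures and have no firm order.

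Among the 20 highest were 6 genes of the matrix lists, namely Thbs1, Npnt, Plau, Col4a1, Ccn1 and Sparc. The collagen chaperone Serpinh1 stood at 644 ± 132 RPKM, thrombospondin 1 (Thbs1) at 597 ± 58.5 RPKM, nephronectin (Npnt) at 506 ± 115 RPKM, the type IV collagen Col4a1 at 495 ± 55.7 RPKM and osteonectin (Sparc) at 431 ± 10.5 RPKM. The urokinase gene Plau had the widest spread after Apoe, at 498 ± 240.2 RPKM, with clone 4 the lowest at 574, 1702 and 1262 CPM in clones 4, 7 and 21. Also among the 20 were B2m, Calr, Scd2, Rpl8, the growth-related matrix gene Ccn1 and Amn, the gene of amnionless. Amnionless carries the protein receptor cubilin to the apical membrane of proximal tubule cells, and Amn stood at 439.6 ± 48.5 RPKM, rank 18 of 21800. In counts not divided by length, the imprinted zinc finger gene Peg3 was the highest of all at 4695, 5448 and 5836 CPM.

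**Figure D1:**
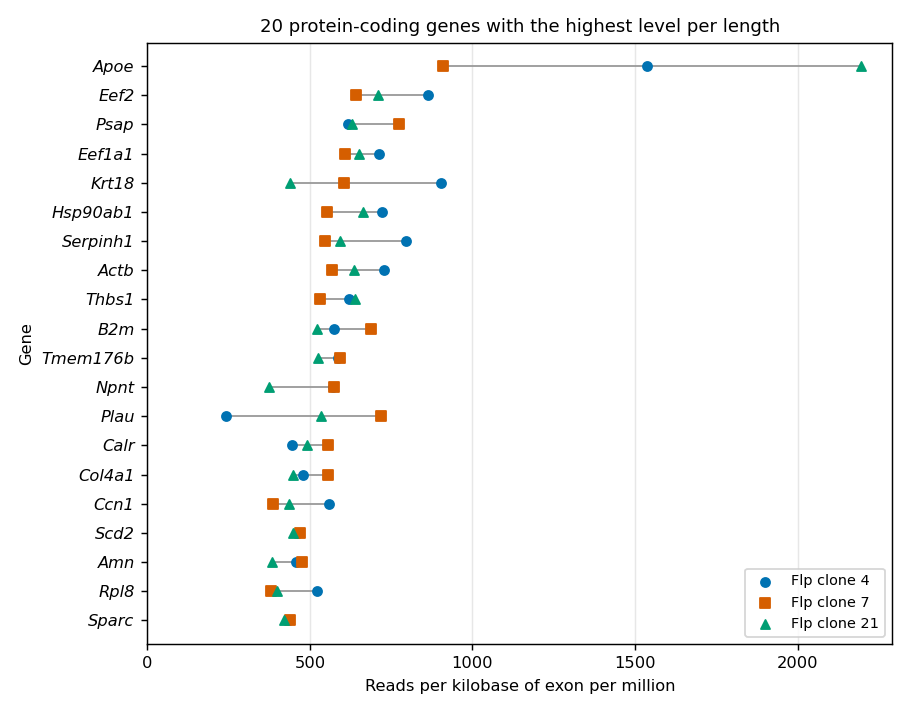
Level per length of the 20 highest protein-coding genes (rows) in RPKM (horizontal axis, linear from 0), with 1 symbol per Flp culture and a line from the lowest to the highest. Apoe ranges widest, from 909.8 in clone 7 to 2194 in clone 21, and Scd2 and Sparc narrowest.

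The counts of genes with many near-identical copies are uncertain. Gapdh, the glycolysis enzyme, was at 57.2, 60.4 and 69.0 CPM and the translationally controlled protein gene Tpt1 at 69.0, 48.3 and 45.5 CPM. How reads shared between copies were counted is not given in the sources used here. The same limit holds for ribosomal protein genes, of which 78 of 83 were detected, against 52.0% of all protein-coding genes. Their summed levels were 7476, 5863 and 6698 CPM in clones 4, 7 and 21.

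Among the transcription factors of the lists, the reprogramming factors Emx2 and Hnf4a were far above Pax8 and the mesenchymal factors per length. They were at 313 ± 12.2 and 264 ± 17.8 RPKM (mean ± SD, n = 3). Of 43 other kidney factors, 18 were detected, or 41.9%, against 52.0% of all protein-coding genes. The highest, Tfcp2l1, a factor of distal tubule and collecting duct, was at 52.9 ± 6.56 RPKM, and did not overlap with Pax8 at 42.1 ± 3.79 RPKM. It was followed by Sox4 at 34.6 ± 5.83 RPKM, Maf at 32.8 ± 5.89 RPKM and Sox11 at 30.4 ± 7.02 RPKM. Lhx1 and Pax2, factors of the early nephron, were at 35.6, 26.5 and 22.6 CPM and 29.6, 34.2 and 20.8 CPM. Each of these was present in all cultures with less than 2-fold between them. Elf3, an epithelial ETS factor, was at 54.7, 19.6 and 8.73 CPM, with the highest value in clone 4.

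Factors of nephron progenitors and of several mature segments were at or near 0. Six2, Osr1 and Sall1, which mark nephron progenitors, had no read in any culture. Wt1, the factor of podocytes and progenitors, had 1, 0 and 2 reads, and Foxi1, the factor of intercalated cells, had no read in any culture. Irx1, a tubule factor, was at 0.358, 4.07 and 0.0746 CPM and reached 1 CPM in clone 7 only. Irx1 and Tfap2a, at 0.717, 3.54 and 0.746 CPM, stood over 4-fold above both others in clone 7, where 0.525% of all genes averaging at least 1 CPM did. Of the 43 kidney factors, 18 were under 1 CPM in every culture, against 9678 of 21800 protein-coding genes.

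Mesenchymal factors were partly present at low levels. Of 21, 10 were detected, or 47.6%, near the 52.0% of all protein-coding genes. Twist1, a driver of the mesenchymal state, led per length with 12.7 ± 3.12 RPKM and was at 25.8, 20.7 and 15.6 CPM in clones 4, 7 and 21. Snai2 was at 14.1, 10.6 and 14.3 CPM and Zeb1 at 21.6, 22.3 and 20.6 CPM. Prrx1, a factor of limb and body fibroblasts, had 0, 3 and 2 reads and Tcf21 had no read in any culture. Foxd1, known from the kidney stroma, was at 65.2, 64.2 and 57.4 CPM, close in all 3 cultures.

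The Hox genes, which record position along the body, split by cluster. Of 39 Hox genes 16 were detected, or 41.0%, against 52.0% of all protein-coding genes. In the Hoxa cluster 10 of 11 genes were detected, with Hoxa10 at 38.8, 48.1 and 49.6 CPM and Hoxa9 at 35.2, 40.0 and 43.3 CPM in clones 4, 7 and 21. In the Hoxb cluster 6 of 10 were detected, and Hoxb8 was at 54.3, 8.83 and 4.22 CPM. The summed Hoxb level was 167 CPM in clone 4, 43.7 CPM in clone 7 and 24.7 CPM in clone 21, so that clone 4 was the high culture. The summed Hoxa level was 146, 163 and 174 CPM. No gene of the Hoxc cluster (9 genes) or the Hoxd cluster (9 genes) was above 0.0248 CPM in any culture. The Hoxd genes had no read at all, Hoxd11 included, a factor of the metanephric kidney.

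Other factor families held a few members at moderate levels. Among nuclear receptors 29 of 49 were detected, or 59.2%, against 52.0% of all protein-coding genes. After Hnf4a the highest were Nr2f6 at 57.7 ± 10.4 RPKM and the liver X receptor Nr1h2 at 37.7 ± 3.38 RPKM. The vitamin D receptor Vdr was at 177, 104 and 94.7 CPM. Gata6 was the only detected one of 6 GATA factors, at 80.7, 95.8 and 77.4 CPM, while Gata3 of the collecting duct was at 0.876, 1.39 and 0.187 CPM. Without clone 4 the count was 2, with Gata2 at 0.398, 1.54 and 3.58 CPM, and without clone 7 it was 2, with Gata4 at 3.46, 0.645 and 12.6 CPM. Among forkhead factors 17 of 44 were detected, or 38.6%, led by Foxk1 at 19.9 ± 4.06 RPKM. The neural crest factor Foxd3 was at 0.159, 3.82 and 10.6 CPM and over 4-fold below both others in clone 4, where 0.178% of all genes averaging at least 1 CPM were. Klf6 led the Kruppel-like factors at 65.0 ± 16.1 RPKM. Of the AP-1 family 8 of 8 were detected, with Junb at 104 ± 27.2 RPKM and Jund at 70.6 ± 11.3 RPKM. Ets1 led the 23 ETS factors at 41.6 ± 5.51 RPKM. Of the STAT and IRF factors, which relay cytokine and interferon signals, 14 of 16 were detected, or 87.5%. Irf3 was at 34.7 ± 2.67 RPKM and Stat6 at 26.8 ± 7.11 RPKM.

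**Figure D2:**
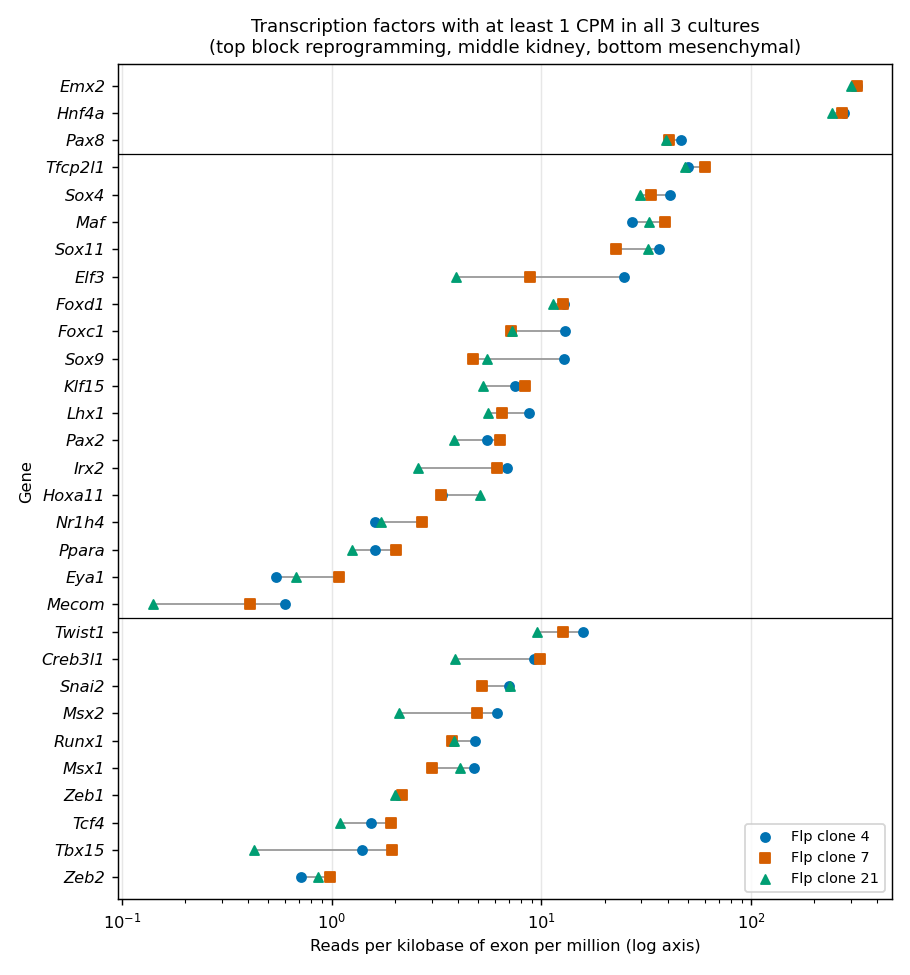
Transcription factors with at least 1 CPM in all 3 Flp cultures (rows, in blocks of reprogramming, kidney and mesenchymal factors) by RPKM (horizontal log axis), with 1 symbol per culture and some factors not drawn. Emx2 and Hnf4a lie to the right of all other factors drawn, and Elf3 and Mecom have the widest spread between cultures.

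Genes of the nephron's segments were present to very different degrees. Of 40 proximal tubule genes 23 were detected, or 57.5%, near the 52.0% of all protein-coding genes. Counts for the other segments were 6 of 8 for the thin limb, 3 of 11 for the thick ascending limb and 6 of 11 for the distal convoluted tubule. They were 2 of 12 for principal cells and 3 of 14 for intercalated cells of the collecting duct. Genes shared by the tubule were mostly present, with 12 of 15 detected and a median log2 CPM of 7.60 against 1.49 for all protein-coding genes. The median of the proximal tubule list was 1.64, that of the thick ascending limb -3.57 and that of intercalated cells -3.86.

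The protein uptake machinery of the proximal tubule was among its most abundant genes. Megalin (Lrp2), the large apical uptake receptor, was at 2377, 3926 and 2922 CPM in clones 4, 7 and 21, and its partner cubilin (Cubn) at 1016, 1445 and 1322 CPM. Clone 4 was the lowest for both. Amn was at 845, 877 and 709 CPM. Per length the 3 stood at 184 ± 47.1, 84.4 ± 14.8 and 439.6 ± 48.5 RPKM (mean ± SD, n = 3). Slc27a2, a fatty acid transporter and acyl-CoA synthetase, was at 643, 1082 and 1579 CPM, highest in clone 21, and the brush border enzyme Ggt1 at 870.4, 409 and 634 CPM.

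Brush border peptidases differed between the cultures. Anpep, an aminopeptidase, was at 131, 349.8 and 134 CPM, Mme, neprilysin, at 13.3, 76.7 and 17.8 CPM and Enpep, which cleaves angiotensin, at 15.9, 38.8 and 15.6 CPM. These 3 peptidases were highest in clone 7, and the other cultures lay close together. The brush border enzyme gene Ggt1, given above, was instead lowest in clone 7. Pdzk1, which anchors brush border transporters, was at 94.8, 89.0 and 121 CPM.

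Several solute transporters that mark the mature proximal tubule were low. The phosphate transporter Slc34a1 was at 0.876, 5.70 and 0.448 CPM, the glucose transporter Slc5a2 at 1.47, 2.88 and 4.10 CPM and the organic anion transporter Slc22a6 at 0.597, 7.64 and 1.68 CPM. Slc34a1 and Slc22a6 were over 4-fold higher in clone 7 than in both other cultures, on log2 CPM with a prior count of 2. The lactate transporter Slc5a12 had 0, 25 and 1 reads and Slc22a8 had 1, 11 and 2 reads, most of them in clone 7. Gluconeogenesis genes were low too, with Pck1 at 6.25, 3.10 and 18.2 CPM, G6pc at 5.49, 12.4 and 6.83 CPM and Fbp1 with 2, 1 and 3 reads. Aqp1, the water channel of proximal tubule and thin limb, was at 7.21, 12.4 and 3.62 CPM.

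Defining genes of the later segments were mostly near 0. Slc12a1, the sodium transporter of the thick ascending limb, had 5, 0 and 1 reads, and Umod, uromodulin, was at 5.06, 2.53 and 4.14 CPM. The thiazide-sensitive transporter Slc12a3 of the distal convoluted tubule was at 2.19, 1.86 and 1.46 CPM. Aqp2 and Avpr2, the water channel and vasopressin receptor of principal cells, had no read in any culture. The kinases Wnk1 and Wnk4, which regulate salt transport in the distal nephron, were at 352, 312 and 317 CPM and, for Wnk4, 84.2, 123 and 58.5 CPM. Among thin limb genes, Cryab, a small heat shock protein, was at 359, 567 and 353 CPM and the urea transporter gene Slc14a2 at 264, 195 and 177 CPM.

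Genes of injured tubules and of the parietal epithelium were mostly present, 14 of 15, or 93.3%, against 52.0% of all protein-coding genes. Clusterin (Clu) was at 586, 533 and 636 CPM, Krt20 at 282, 272 and 208 CPM and the integrin Itgb6 at 283, 298 and 241 CPM in clones 4, 7 and 21. Cdh6, a cadherin of the developing proximal tubule, was at 276, 343 and 258 CPM. The classical injury markers were low, with Havcr1 (kidney injury molecule 1) at 9.36, 6.52 and 10.9 CPM and Lcn2 at 0.916, 0.372 and 0.597 CPM. Vcam1 was at 42.6, 39.2 and 5.97 CPM, over 4-fold lower in clone 21 than in both others, where 0.653% of all genes averaging at least 1 CPM were. Among podocyte genes the widely used actin linker Actn4 was at 934, 906 and 792 CPM and the intermediate filament gene Nes at 735, 355 and 605 CPM.

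**Figure D3:**
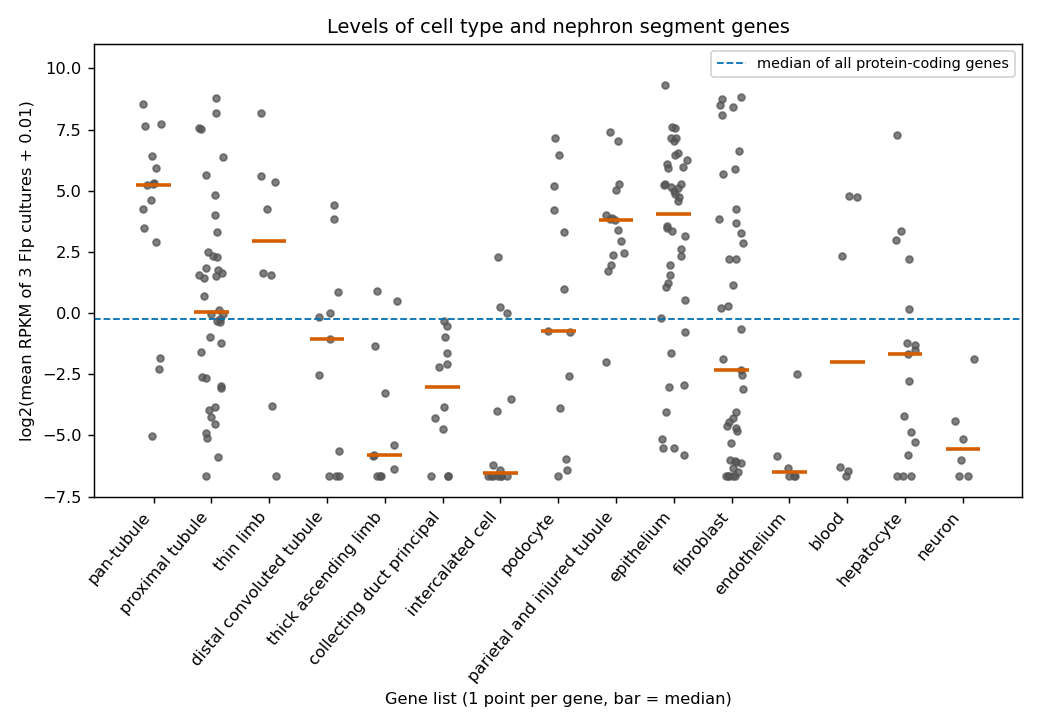
Mean level of each gene (1 point) in the 3 Flp cultures as log2 of RPKM plus 0.01 (vertical axis), by gene list (horizontal axis), with the list median as a bar and the median of all protein-coding genes as a dashed line. The pan-tubule, epithelium and injured tubule medians lie above the dashed line, and those of the thick ascending limb, intercalated cell, endothelium and neuron lists far below it.

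Epithelial genes were broadly expressed. Of 42 genes of junctions, polarity and keratins, 31 were detected, or 73.8%, against 52.0% of all protein-coding genes, with list medians of 6.71, 6.37 and 6.49 on the log2 CPM scale in clones 4, 7 and 21. E-cadherin (Cdh1) was at 652, 495 and 806 CPM, Epcam at 271, 151 and 163 CPM, desmoplakin (Dsp) at 772, 597 and 594 CPM and the brush border protein villin (Vil1) at 474, 475 and 446 CPM. The tight junction scaffold Tjp1 was at 289, 293 and 327 CPM and occludin (Ocln) at 116, 124 and 127 CPM, each nearly level across cultures. The splicing factors Esrp1 and Esrp2, which set epithelial isoforms, were at 81.4, 26.0 and 60.8 CPM and, for Esrp2, 142, 186 and 158 CPM.

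Some epithelial genes were missing or held by part of the cultures. Krt7, a keratin of the collecting duct, had 6, 3 and 2 reads, and Rab25 had 1, 15 and 4 reads. Grhl2, an epithelial regulator, was at 1.83, 0.124 and 1.16 CPM. The desmosomal cadherin Dsc2 was at 15.6, 21.3 and 0.112 CPM, so that it was all but missing in clone 21. Prss8, prostasin, was at 93.6, 47.4 and 6.12 CPM, also lowest in clone 21, while Cldn7 was at 3.34, 1.26 and 63.4 CPM and high there alone.

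Among keratins per length the order was Krt18 at 649 ± 236 RPKM, Krt19 at 189 ± 49.8 RPKM, Krt8 at 143 ± 51.4 RPKM and Krt20 at 132 ± 20.8 RPKM (mean ± SD, n = 3). The last 3 overlapped between cultures. Among 20 cadherins Cdh16 led at 213 ± 19.8 RPKM, before Cdh1 at 142 ± 34.0 RPKM and Cdh3 at 73.4 ± 9.56 RPKM, and N-cadherin (Cdh2) stood at 14.5 ± 2.90 RPKM. Among 22 claudins 6 were detected, or 27.3%, against 52.0% of all protein-coding genes. Cldn2, the cation-permeable claudin of the proximal tubule, led at 146 ± 14.3 RPKM with 506, 517 and 429.6 CPM in clones 4, 7 and 21. Cldn16 and Cldn19, the magnesium pathway of the thick ascending limb, had no read in any culture and, for Cldn19, 0, 1 and 0 reads.

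Of 379 solute carriers 224 were detected, or 59.1%, against 52.0% of all protein-coding genes. The highest per length were Slc27a2 at 293 ± 125 RPKM and Slc6a18 at 270.1 ± 23.1 RPKM, an apical neutral amino acid transporter of the proximal tubule (mean ± SD, n = 3). Slc6a18 was even across cultures, at 1212, 1083 and 1284 CPM, while its relative Slc6a19 was at 12.7, 10.3 and 20.3 CPM. The mitochondrial carrier Slc25a39 was at 171 ± 12.6 RPKM, the large amino acid transporter Slc7a5 at 168 ± 18.3 RPKM and the borate transporter relative Slc4a11 at 162 ± 34.2 RPKM. Slc2a1, the basal glucose transporter, led the sugar transporters at 129 ± 26.6 RPKM. The apical ones were low, with Slc5a2 at 0.973 ± 0.455 RPKM and Slc5a1 at 0.772 ± 0.386 RPKM.

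The beta subunits of the sodium pump, Atp1b1 and Atp1b3, were at 132, 134 and 81.3 CPM and, for Atp1b3, 120.2, 111 and 117 CPM. Fxyd2, the renal gamma subunit, was at 261, 66.5 and 136 CPM, with clone 4 the highest and clone 7 the lowest. Among ABC transporters 31 of 50 were detected, or 62%, against 52.0% of all protein-coding genes. They were led by the lipid transporter Abca3 at 56.4 ± 13.0 RPKM, Abcc5 at 54.5 ± 11.2 RPKM and Abcg2 at 53.1 ± 9.70 RPKM, which overlapped. The drug efflux gene Abcb1b was at 12.0, 4.66 and 13.4 CPM. Only 4 of 12 aquaporins were detected, or 33.3%, with the glycerol channel Aqp7 the highest at 7.88 ± 0.226 RPKM.

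Of 92 potassium channel genes 16 were detected, or 17.4%, against 52.0% of all protein-coding genes. Kcnk1 was at 126, 97.1 and 100.1 CPM and the inward rectifiers Kcnj15 at 151, 299 and 179 CPM and Kcnj16 at 52.5, 45.1 and 25.1 CPM. The osmosensitive calcium channel Trpv4 led the transient receptor potential family at 74.9 ± 9.63 RPKM, and Pkd2 followed at 24.9 ± 3.70 RPKM. Of 26 proton pump subunits 19 were detected, or 73.1%. The intercalated cell forms Atp6v1b1 and Atp6v0d2 had 0, 1 and 0 reads and, for Atp6v0d2, no read in any culture.

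Receptors for growth factors, hormones and uptake of ligands were next described by family. Of 58 receptor tyrosine kinases 34 were detected, or 58.6%, against 52.0% of all protein-coding genes. The collagen receptor Ddr1 led at 83.1 ± 17.5 RPKM, followed by Egfr at 63.3 ± 2.44 RPKM, Epha2 at 56.8 ± 12.6 RPKM and Erbb3 at 54.2 ± 9.36 RPKM, whose values overlapped in part. Egfr was at 685, 737 and 729 CPM in clones 4, 7 and 21, with little spread. Met, the hepatocyte growth factor receptor, was at 5.77, 15.2 and 5.52 CPM. Fgfr1 was at 99.0, 26.3 and 80.9 CPM, with clone 7 the lowest, and Flt1, a VEGF receptor, at 17.2, 64.9 and 40.8 CPM, with clone 4 the lowest. Flt1 lies in the distal stretch of chromosome 5, from 140 to 160 Mb.

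Of 50 receptors for hormones and local signals in the kidney 21 were detected, or 42%, against 52.0% of all protein-coding genes. The thrombin receptor F2r and its relative F2rl1 led at 166 ± 19.9 and 119 ± 11.5 RPKM. The parathyroid hormone receptor Pth1r, which lowers phosphate uptake in the proximal tubule, was at 211, 272 and 194 CPM in clones 4, 7 and 21. Agtr1a, the angiotensin receptor, was at 0.478, 0.768 and 0.522 CPM and Casr, the calcium sensor, had no read in any culture. The mineralocorticoid receptor Nr3c2 was at 3.50, 5.78 and 4.18 CPM. Glp1r was at 30.9, 2.26 and 2.80 CPM, high in clone 4 alone.

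Among TGF-beta family receptors 9 of 14 were detected, or 64.3%, against 52.0% of all protein-coding genes. Tgfbr2 was at 354, 391 and 290.3 CPM and Tgfbr1 at 183, 169 and 179.8 CPM. Of the Notch, Wnt and hedgehog receptors 16 of 22 were detected, or 72.7%. Notch2, the main Notch receptor of the nephron, was at 368, 398 and 360.2 CPM, against 6.81, 5.16 and 10.3 CPM for Notch1. The hedgehog transducer Smo was at 199, 179 and 147 CPM. Endocytic receptors were largely present, 18 of 23, or 78.3%. Besides Lrp2, Cubn and Amn they included the mannose 6-phosphate receptor Igf2r at 694, 687 and 711 CPM and Lrp1 at 742, 1025 and 438 CPM. The folate receptor Folr1, a proximal tubule gene too, was at 52.8, 161 and 31.6 CPM and highest in clone 7.

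Basement membranes are the matrix sheets on which tubule cells rest. Of 29 such genes 24 were detected, or 82.8%, against 52.0% of all protein-coding genes, and their summed level was 19045 CPM in clone 4, 20319 CPM in clone 7 and 16209 CPM in clone 21. The type IV collagen chains Col4a1 and Col4a2 were at 3581, 4153 and 3343 CPM and 1732, 1802 and 1328 CPM. Their exons overlap those of a neighbour, so the counts are uncertain. Nephronectin (Npnt), a ligand of integrins in kidney development, was at 2868, 2885 and 1877 CPM and the type XVIII collagen Col18a1 at 2302, 2125 and 1417 CPM, each lowest in clone 21. Agrin (Agrn) was at 1844, 2246 and 1832 CPM.

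Laminin chains of kidney basement membranes were above those of skin per length. Lama5, the alpha chain of mature tubule and glomerular basement membranes, was at 1263, 1314 and 1487 CPM, Lamb1 at 714, 1055 and 626 CPM and Lamc1 at 339, 325 and 298 CPM in clones 4, 7 and 21. As levels per length these were 119 ± 10.3, 80.5 ± 22.8 and 38.8 ± 2.55 RPKM, and the skin chains Lama3 and Lamb3 were at 0.880 ± 0.0321 and 0.839 ± 0.564 RPKM (mean ± SD, n = 3). Lamb2, a chain of mature basement membranes, was at 38.7 ± 2.66 RPKM and Lama1, an early nephron chain, at 5.04 ± 1.06 RPKM. Frem2 of the Fraser complex, which links epithelium to matrix, was at 1535, 1667 and 1277 CPM and its partner Fras1 at 193, 367 and 227 CPM. The chains of the adult glomerular network were lower, with Col4a3 at 4.26, 23.5 and 10.4 CPM and Col4a4 at 19.0, 75.4 and 10.7 CPM, both highest in clone 7.

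Of 26 integrin chains, the receptors for matrix, 16 were detected, or 61.5%, against 52.0% of all protein-coding genes. Itgb1, the common beta chain, was at 328 ± 21.8 RPKM, and its laminin partners Itga3 and Itga6 at 151 ± 20.7 and 44.7 ± 8.06 RPKM (mean ± SD, n = 3). Itga8, the kidney receptor of nephronectin, had 0, 4 and 0 reads. Itga2, a collagen receptor, had 703, 101 and 631 reads, low in clone 7 alone. The heparan sulphate carriers Sdc4 and Gpc3 led the proteoglycans at 224 ± 41.0 and 199.5 ± 21.3 RPKM, while decorin (Dcn) and lumican (Lum) had 1, 0 and 0 reads and, for lumican, 0, 0 and 1 reads.

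**Figure D4:**
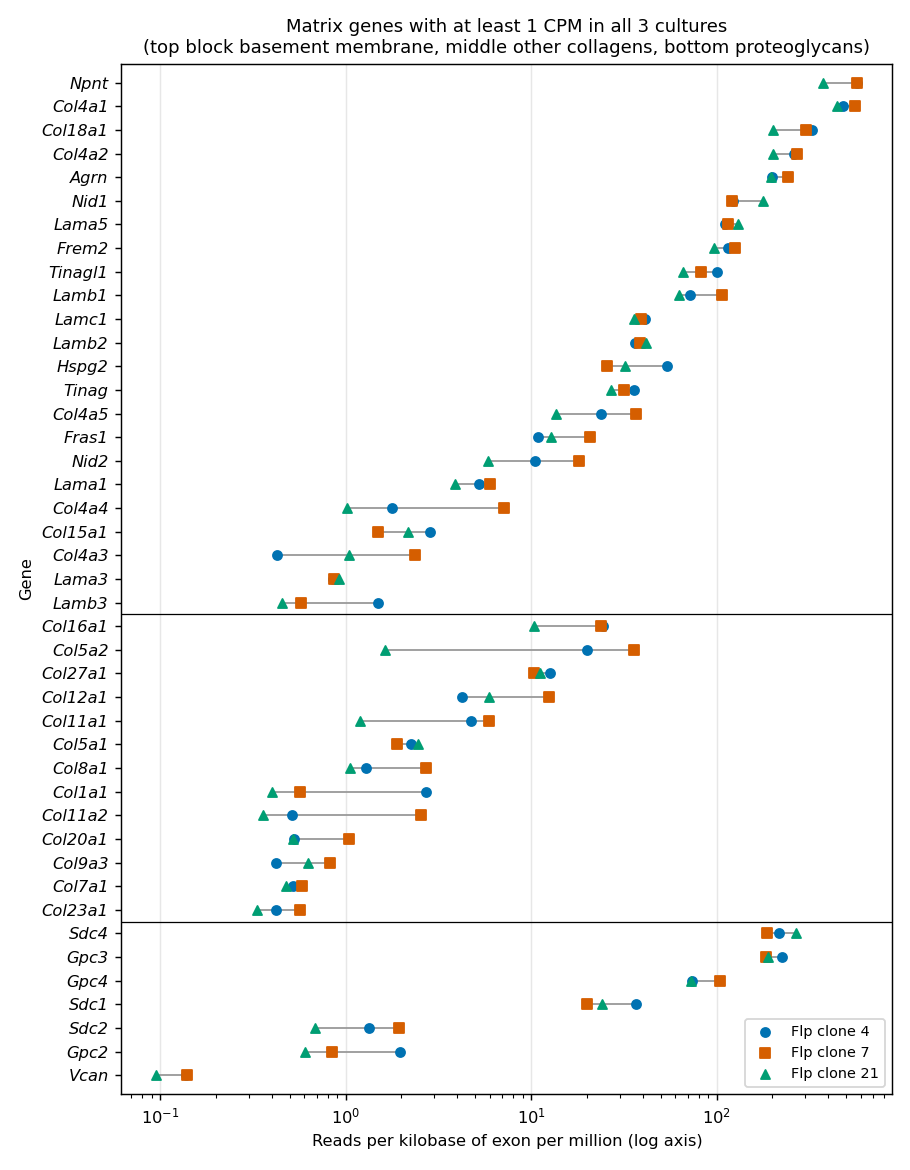
Matrix genes with at least 1 CPM in all 3 Flp cultures (rows, in blocks of basement membrane genes, other collagens and proteoglycans) by RPKM (horizontal log axis), with 1 symbol per culture and 1 gene not drawn. Npnt, Col4a1, Col18a1 and Col4a2 lead the first block, and Col5a2 in the second lies far lower in clone 21 than in the other cultures.

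Other matrix genes were unevenly present. Of 35 matrix glycoproteins 21 were detected, or 60%, and of 44 collagens 20, or 45.5%, against 52.0% of all protein-coding genes. The detected glycoproteins included Igfbp7 at 368 ± 162 RPKM. Of 27 proteases and their inhibitors 17 were detected, or 63.0%. They included Timp3, an inhibitor of metalloproteases, at 47.8 ± 11.3 RPKM and the membrane metalloprotease Mmp14 at 45.6 ± 7.48 RPKM. Fbln1, a basement membrane glycoprotein, was at 16.1, 1.46 and 3.77 CPM and over 4-fold above both others in clone 4.

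Genes of fibroblasts, the cells of origin, were next counted. Of 41 genes 19 were detected, or 46.3%, against 52.0% of all protein-coding genes. Under 1 CPM in every culture were 21, against 9678 of 21800 protein-coding genes. Among the defining ones, Col1a2 had 1, 0 and 0 reads, Col3a1 16, 27 and 5 reads, Pdgfra 9, 8 and 6 reads and Thy1 no read in any culture in clones 4, 7 and 21. Mmp2 and Lox, an enzyme pair of matrix turnover and collagen crosslinking, had no read in any culture. Col1a1, the partner chain of Col1a2, was at 17.8, 3.74 and 2.65 CPM and highest in clone 4.

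Some members were at high level and are also used outside fibroblasts. They included Sparc at 1656, 1658 and 1588 CPM, fibronectin (Fn1) at 863, 763 and 447 CPM, the growth-related Ccn1 at 1131, 781 and 881 CPM and its relative Ccn2 at 974, 959.7 and 992 CPM. Vimentin (Vim), an intermediate filament of mesenchymal and cultured cells, was at 278, 243 and 216 CPM. A further group was shared by clones 4 and 7 and low in clone 21. Col5a2, a fibrillar collagen chain, was at 191, 344 and 15.6 CPM, the mesenchymal cadherin Cdh11 at 101, 85.8 and 10.0 CPM, the crosslinking enzyme Loxl1 at 39.1, 49.4 and 6.01 CPM and the receptor Pdgfrb at 10.1, 7.11 and 1.53 CPM. These 4 of the 19 list members averaging at least 1 CPM stood over 4-fold below both other cultures in clone 21, or 21.1%, where 0.653% of all such genes did. In clone 4 the list's Col1a1 stood over 4-fold above both others, where 0.263% of all such genes did.

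Markers of other cell types were described by list, beside the 52.0% of all protein-coding genes that were detected. Of 6 endothelial genes 0 were detected, with summed levels from 0.239 to 1.83 CPM, and Cdh5, Kdr and Emcn had no read. Of 6 neuronal genes 0 and of 6 pluripotency genes 1 were detected, the latter being Lin28a at 2.51, 2.03 and 2.13 CPM. Without clone 21 the pluripotency count was 2, with Nanog at 1.91, 1.21 and 0.896 CPM. Of 6 blood genes 3 were detected, or 50%, near the share of all protein-coding genes. Ptprc, the pan-leukocyte marker, had 1, 0 and 1 reads and Adgre1, the macrophage marker, no read in any culture. The colony-stimulating factor receptor Csf1r was at 151, 111 and 196 CPM, the monocyte gene Cd14 at 45.5, 56.4 and 40.2 CPM and the macrophage marker Cd68 at 6.53, 6.17 and 6.27 CPM. Of 7 muscle genes 1 was detected and of 6 adipocyte genes 2, with Pparg, the fat cell regulator, at 23.7, 42.6 and 17.4 CPM. Of 13 intestinal genes 3 were detected, of which Vil1 is also a gene of the renal brush border.

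Genes of the hepatocyte, another cell that depends on Hnf4a, were detected for 4 of 17, or 23.5%, against 52.0% of all protein-coding genes. Albumin (Alb) had 0, 0 and 3 reads and Cyp3a11 had no read in any culture. Alpha-fetoprotein (Afp), a secreted protein of fetal liver and yolk sac, was at 188, 47.7 and 1353 CPM, with clone 21 over 4-fold above both other cultures, where 0.153% of all genes averaging at least 1 CPM were. The protease inhibitor gene Serpina1a, at 12.7, 3.50 and 39.6 CPM, and fibrinogen Fgb, at 12.4, 5.92 and 35.0 CPM, had the same order of cultures. Summed over the list, the level was 220.3 CPM in clone 4, 63.7 CPM in clone 7 and 1439.7 CPM in clone 21. Serpina1a has close relatives in the genome, so its count is uncertain.

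The 3 cultures were alike for most genes. Over 11800 protein-coding genes averaging at least 1 CPM, log2 CPM correlated across genes with Pearson's r of 0.958 between clones 4 and 7, 0.955 between clones 4 and 21 and 0.953 between clones 7 and 21. Spearman's rho ranged from 0.972 to 0.974. Genes are not independent replicates, and levels of all genes share each library. Over 2-fold apart were 850 genes between clones 4 and 7 (7.20%), 841 between clones 4 and 21 (7.13%) and 845 between clones 7 and 21 (7.16%). Over the 9477 genes averaging at least 10 CPM, the median range between the highest and the lowest culture was 0.35 on the log2 scale, and 71.5% of them had a range under 0.5. The biological coefficient of variation, which is the spread between cultures beyond counting error as a share of the level, was 0.276 by edgeR.

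Read against this background, the lists differed in how even they were. None of the 5 label markers or the 19 detected proton pump subunits was over 2-fold apart in any pair. For lists this short that is near the 7.13% to 7.20% of all such genes, so it does not set them apart. Of the 28 proximal tubule genes averaging at least 1 CPM, 12 were over 2-fold apart between clones 4 and 7, 9 between clones 4 and 21 and 15 between clones 7 and 21. Of these, 4 genes (Acsm2, Mme, Slc22a6 and Slc34a1) were over 4-fold above both others in clone 7, or 14.3%, where 0.525% of all such genes were. Acsm2, a mitochondrial acyl-CoA synthetase, was at 0.279, 2.83 and 0.224 CPM and Mme at 13.3, 76.7 and 17.8 CPM. Acsm2 and Slc34a1 were under 1 CPM in clones 4 and 21 and entered the 28 genes only through clone 7. No conclusion is therefore drawn from the 14.3%. Of the 19 fibroblast genes 1 was over 2-fold apart between clones 4 and 7, 8 between clones 4 and 21 and 5 between clones 7 and 21. The first of these counts is near the share of all such genes.

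**Figure D5:**
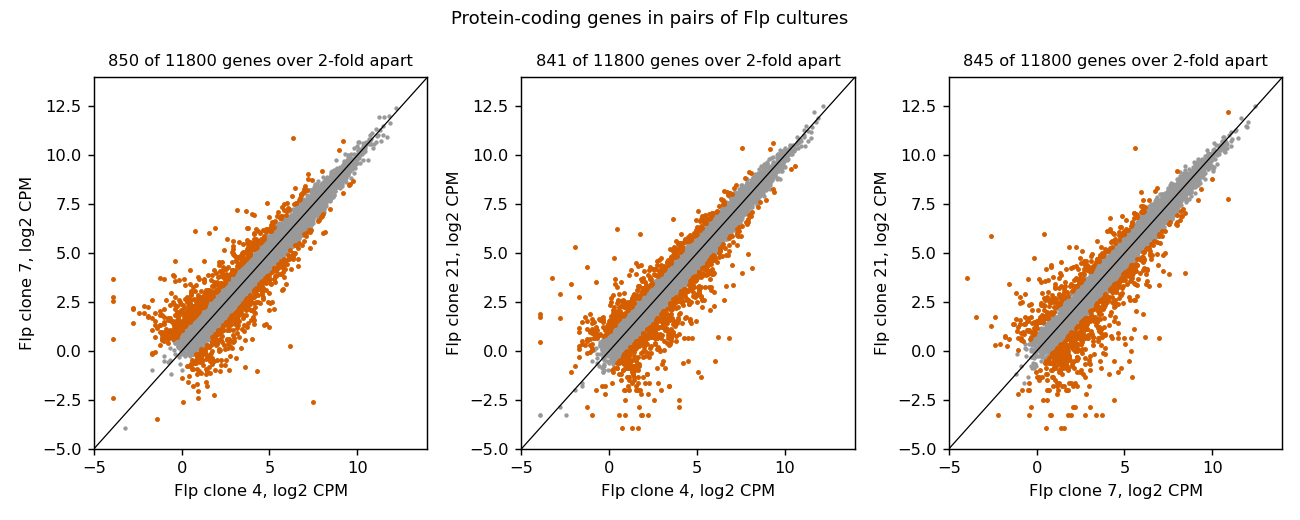
Each protein-coding gene averaging at least 1 CPM (1 point) by its log2 CPM in 2 Flp cultures (axes, 1 panel per pair), with genes over 2-fold apart in orange and the line of equal levels. Most genes follow the line, with 850, 841 and 845 of 11800 genes outside the 2-fold band.

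The genes with the widest range between cultures, among those averaging at least 10 CPM, were often all but missing in 1 culture. Slc34a2, a sodium phosphate transporter, was at 181, 0.0992 and 59.0 CPM in clones 4, 7 and 21, with 4556, 4 and 1581 reads. Slit3, a guidance ligand, was at 112, 127 and 1.49 CPM and the desmosomal Dsc2 at 15.6, 21.3 and 0.112 CPM, both lowest in clone 21. The sulphatase gene Arsi was at 64.4, 38.6 and 0.634 CPM and Vwce at 37.9, 42.2 and 0.336 CPM, again lowest in clone 21. Serpinb9e, a protease inhibitor gene, had 1816, 45 and 43 reads and Chst13 was at 32.7, 5.48 and 0.410 CPM, both highest in clone 4. The adenylate cyclase Adcy1 was at 1.31, 17.8 and 76.4 CPM, highest in clone 21, and the scaffold Grip1 at 9.16, 27.8 and 0.485 CPM. Wasf3, an actin regulator, was at 0.199, 4.71 and 40.0 CPM. Serpinb9e has close relatives in its gene family, so its count is uncertain.

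Neighbouring genes moved together on parts of 4 chromosomes. The genome was divided into stretches of 20 Mb holding 10 or more genes, and 8 of 139 stretches had a median over 0.3 on the log2 scale in some culture against the mean of the other 2, where the typical absolute median was 0.0586. On chromosome 5 from 140 to 160 Mb, which holds Wasf3 and Flt1, clone 4 stood at -0.82. On chromosome 2 from 120 Mb to the end clone 21 stood between 0.45 and 0.52. On chromosome 14 up to 20 Mb the medians of clones 4, 7 and 21 were -1.16, 0.78 and 0.46. In its next stretch, from 20 to 40 Mb, which holds Plau, clone 4 stood at -0.46 and clone 7 at 0.39. On chromosome 6 from 140 Mb clone 4 stood at -0.34 and clone 7 at 0.39. These stretches held 589 of 10418 genes placed, and all 10 widest-range genes but Wasf3 lay outside them.

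Reads of overlapping genes cannot be assigned with certainty when the handling of strand is not given. Among the genes named with values, exons of Abca3, Abcb1b, Actn4, Atp1b1, Ccn2, Cldn19, Col3a1, Col4a1, Col4a2, Col4a3, Cryab, Csf1r, Cubn, Ddr1, Dsp, Eef1a1, Elf3, Emx2, Esrp1, Esrp2, Fgfr1, Fn1, Foxd3, Fras1, Gapdh, Gata3, Gata6, Grhl2, Hoxa9, Igfbp7, Irf3, Itga8, Junb, Jund, Kcnj15, Kcnk1, Krt7, Krt8, Lama3, Lin28a, Maf, Notch1, Notch2, Nr2f6, Nr3c2, Pax8, Pdgfra, Pdzk1, Pkd1, Pkhd1, Prss8, Pth1r, Slc27a2, Slc2a1, Slc34a1, Slc3a1, Slc5a2, Sox4, Stat6, Tfap2a, Tfcp2l1, Thbs1, Timp3, Tmem176b, Umod, Vcam1, Vil1, Vwce, Wnk4 and Zeb1 overlap those of another annotated gene, and their counts are uncertain in this respect.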

How the data were processed

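RNA was measured in 3 Flp cultures, and the authors deposited a table of raw read counts per gene for each library, with genes named by Ensembl identifier. Per the submitters' processing notes, DESeq2 2.11.40.1, STAR 2.5.2b-2, featureCounts 1.6.0.3, Trim Galore 0.4.3.0 and FastQC 0.67 were used with the builds mm10 and GRCm38. How strand was handled, the layout of the reads and the release of the gene models were not given in the sources used here.

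The deposited counts were scaled with edgeR 4.0.16 (TMM, R 4.3.3) to CPM and, with a prior count of 2, to log2 CPM. RPKM was computed from the union of exons in a GENCODE annotation of GRCm38, which matched 49412 of 49671 gene identifiers and gave their symbols. The libraries held 25196120 to 40274665 counts, and their floors cover counting error only. The members and the 40 gene lists and 18 symbol families were chosen with earlier results of these data known. Of the listed symbols, 2 were matched through a synonym. Cultures were compared over protein-coding genes averaging at least 1 CPM. No test of a difference was run, and the Cre libraries and the authors' table of their own comparison were not used. The calculation of levels and spread was tested on simulated data.

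Genes were named by rule: the label markers and reprogramming factors, the 20 highest by mean RPKM, up to 5 highest members of each list, defining markers under 1 CPM, the 10 widest ranges, and list members over 4-fold above or below both other cultures. Some genes that meet the rule, and a second motif searched in the same promoters, are not reported here. Other list members are named for their role and were chosen after their values were seen. Alternatives changed the scaling, the filter on low counts, the prior count, the fold, the gene length, the chromosomes used and the cultures used.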

Additional observations from a re-analysis of the deposited data

How the results depend on the processing

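No paired analysis was possible because only 1 group was described and no test of a difference was run. Over genes of all biotypes, of which 12224 had at least 1 CPM in all 3 cultures, counting those with any read in all 3 raised the number to 18345, and leaving out a culture gave 12341 to 12539. The share of genes over 2-fold apart in pairs 4 and 7, 4 and 21, and 7 and 21 fell to 4.49%, 4.52% and 4.36% at a mean of at least 5 CPM and to 3.44%, 3.56% and 3.22% at 10 CPM. Over 4-fold apart were 1.68%, 1.87% and 2.26%. Pearson's r was 0.954, 0.947 and 0.948 at a mean of at least 5 CPM, and with a prior count of 0.5 it was 0.952 for clones 4 and 21 and 0.950 for clones 7 and 21. The coefficient of variation was 0.289, 0.238 and 0.216 at a mean of at least 0.5, 5 and 10 CPM, 0.269 without chromosomes 2, 5, 6 and 14, and 0.272 to 0.278 when a culture was left out. Each of these alternatives changes which genes or cultures enter or how low values are treated.

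RLE size factors or raw totals in place of TMM moved no list count by over 1.5 times. At 5 CPM the detected count moved by over 1.5 times for 17 of 58 lists, among them the thick ascending limb (from 3 to 0), principal cells (from 2 to 0), hepatocytes (from 4 to 2), pluripotency genes (from 1 to 0) and the proximal tubule (from 23 to 15). With the longest transcript as length, 17 of the 20 highest genes were again among the 20 highest. Leaving out genes that overlap another left 15 of the 20, a count fixed by how many of them overlap. There was 1 library per clone, so differences between clones and between libraries cannot be told apart.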
